A study of Mus musculus with 18 samples.

Results

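The genes described here were 54 genes of mitosis, chosen by name: components of the kinetochore and the spindle, the spindle assembly checkpoint, mitotic kinases, motors, cytokinesis proteins, condensin, and the transcription factors Foxm1 and Mybl2. They were chosen with earlier results of these data known. All 54 were among the 25239 genes of the deposited table, and all 54 passed the filter on low values (at least 1 TPM, transcript abundance scaled for length and library size, in at least 3 samples) that left 12828 genes to test. RNA was sequenced from 3 mouse small cell lung cancer (SCLC) cell lines, 4711-1, 4711-18 and 4716-11, which the study calls Type D because their cells die after p53 is restored. The lines came from lung tumors of mice that were flox/flox for Rb1 and for Rbl2, XTR/XTR for Trp53, and carried Rosa26 FlpO-ER, and in which adenoviral CMV-Cre had deleted Rb1 and Rbl2 and switched Trp53 off with a gene trap. Every group, controls included, therefore lacked Rb1 and Rbl2, and every culture also carried Cas9 with 1 of 3 sgRNAs: sgBgal, the control guide, or sgPpia#3.2 or sgPpia#4.1, which target Ppia, the gene of cyclophilin A. Each line with each guide was given vehicle (Control, p53 off) or 500 nM 4-hydroxytamoxifen (4-OHT; Restored, p53 back on after FlpO-ER excised the trap) for 72 h, which gave 18 samples in 6 conditions of 3 lines each. All Restored cells and no Control cells received 4-OHT, so effects of the drug itself and of p53 cannot be told apart within these samples.

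At the entry into mitosis, cyclin-dependent kinase and PLK1 drive chromosome condensation and spindle assembly. Kinetochores, the protein assemblies on CENP-A chromatin, attach chromosomes to spindle microtubules, and the checkpoint holds back the anaphase-promoting complex (APC/C) with its activator CDC20 until all are attached. Separase then cuts cohesin, the chromatids part, and the central spindle directs cytokinesis. Most of these genes are transcribed in G2 and M phase from promoters with CCAAT boxes and a cell cycle genes homology region (CHR). They are activated there by B-MYB (Mybl2) with the MuvB complex and FOXM1, and are repressed by the DREAM complex, in which p130 (Rbl2) or p107 joins MuvB. p53 is known to lower them through p21 (Cdkn1a) and DREAM. RB, p107 and p130 are the pocket proteins, of which these cells kept p107 alone.

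Of the 54 genes, 44 had an entry in the RefSeq promoter windows (assembly GRCm38.p6, 250 bases before to 50 bases after the annotated start, 49 windows in all); Aurkb, Cdc25c, Foxm1, Incenp, Kif20a, Lmnb1, Pimreg, Smc4, Spc24 and Tpx2 had none. The windows of Plk1, Kif11, Bub1 and Cdc20 are shown because these genes stand for the kinases, motors, checkpoint and APC/C below, and that of Gtse1 because it was the one gene called higher. They are written 5′ to 3′ on the strand of the gene. Capitals mark the CHR (TTTGAA or TTCGAA) and the CCAAT box in the first 4 and, in Gtse1, the CCAAT box and a match to the p53 decamer motif; ATTGG and TTCAAA are the same motifs on the other strand.
Plk1 (chr7:122159185-122159484, + strand): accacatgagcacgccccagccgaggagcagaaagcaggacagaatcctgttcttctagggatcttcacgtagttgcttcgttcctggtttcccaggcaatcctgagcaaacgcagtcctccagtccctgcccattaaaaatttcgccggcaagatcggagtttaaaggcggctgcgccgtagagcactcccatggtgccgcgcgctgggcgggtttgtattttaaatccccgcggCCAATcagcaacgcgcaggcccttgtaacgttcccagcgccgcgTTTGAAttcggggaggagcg
Kif11 (chr19:37376132-37376431, + strand): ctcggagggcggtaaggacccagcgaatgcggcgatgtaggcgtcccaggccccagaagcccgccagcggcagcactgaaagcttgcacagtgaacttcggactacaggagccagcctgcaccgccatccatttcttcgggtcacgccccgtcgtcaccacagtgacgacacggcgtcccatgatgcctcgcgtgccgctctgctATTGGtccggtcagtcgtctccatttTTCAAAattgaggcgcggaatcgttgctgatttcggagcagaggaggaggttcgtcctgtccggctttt
Bub1 (chr2:127831810-127832109, - strand): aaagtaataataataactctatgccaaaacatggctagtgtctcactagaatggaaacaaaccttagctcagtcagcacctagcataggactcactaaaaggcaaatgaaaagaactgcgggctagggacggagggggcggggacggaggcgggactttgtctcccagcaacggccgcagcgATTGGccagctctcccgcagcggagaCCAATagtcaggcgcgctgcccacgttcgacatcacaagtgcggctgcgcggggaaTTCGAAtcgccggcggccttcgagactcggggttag
Cdc20 (chr4:118437294-118437593, - strand): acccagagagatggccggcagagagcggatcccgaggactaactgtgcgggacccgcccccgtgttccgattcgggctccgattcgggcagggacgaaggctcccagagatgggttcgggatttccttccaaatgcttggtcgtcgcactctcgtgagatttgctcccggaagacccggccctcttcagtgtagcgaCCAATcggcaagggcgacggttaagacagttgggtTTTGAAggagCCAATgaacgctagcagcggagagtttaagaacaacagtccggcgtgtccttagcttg
Gtse1 (chr15:85859696-85859995, + strand): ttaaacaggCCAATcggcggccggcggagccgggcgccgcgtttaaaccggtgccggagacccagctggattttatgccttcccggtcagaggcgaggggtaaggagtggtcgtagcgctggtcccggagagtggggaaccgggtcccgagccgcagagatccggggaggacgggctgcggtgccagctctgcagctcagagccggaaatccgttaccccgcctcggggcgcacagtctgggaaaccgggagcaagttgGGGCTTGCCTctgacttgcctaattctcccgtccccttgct

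Counting from the first base of the window, the CHR of Plk1 began at base 281 and its CCAAT box at base 237, and in Kif11 they began at bases 232 and 206. Bub1 had its CHR at base 265 and CCAAT boxes at bases 183 and 209, and Cdc20 had its CHR at base 233 between CCAAT boxes at bases 198 and 243. Gtse1 had 2 windows, of which the one with the p53 decamer match is shown; the other held 3 CCAAT boxes and no such match. In the window shown the CCAAT box began at base 10 and the p53 decamer match at base 260, and no CHR letters were found in either window. Searching both strands, 32 of the 44 genes had TTTGAA or TTCGAA in a window, against 21.7% of all 27025 genes with promoter windows. In the last 100 bases, around the start, 29 of the 44 had it, against 6.12% of all genes (a window chosen after the data were seen). CCAAT was found in 31 of the 44, against 41.1%, and GGGCGG, the GC box, in 36, against 38.2%. The E2F letters TTCCCGC with their variants (TTGGCGC, also TTCGCGC, also TTGCCGC) were found in 7, against 10.9%, and the p53 decamer motif in 7 (Birc5, Bub1b, Ckap2, Gtse1, Kif23, Smc2 and Spc25), against 9.55%. A match here is a string of letters and not a shown binding site. The median response to p53 restoration in sgBgal cells, on the log2(TPM + 1) scale used for all fold changes here, was -2.11 in the 32 genes with CHR letters and -1.82 in the 12 without. For the p53 decamer motif it was -0.82 in the 7 genes with a match and -2.10 in the 37 without.

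The labels held up on the genes that define them. Trp53 lay between 5.45 to 8.41 TPM in the 9 Control samples and between 181 to 236 TPM in the 9 Restored samples. Cdkn1a, the p21 target of p53, lay between 99.4 to 369 TPM in Control and between 1565 to 3806 TPM in Restored samples. Ppia was lower with both Ppia guides than with sgBgal in each line and state. Of the markers of neuroendocrine SCLC, Neurod1, Calca, Chga and Dll3 stayed under 1 TPM in every sample, while Ncam1, Syp and Uchl1 reached 1 TPM in all 18. Of the epithelial markers, Krt8, Krt18 and Cdh1 were abundant, while Epcam had a median of 0.563 TPM and reached 1 TPM in 5 of the 18 samples. Summed, the epithelial markers lay between 9542 and 17735 TPM in Control and between 4874 and 11681 TPM in Restored samples. Fibroblast markers summed to at most 1.17 TPM and endothelial ones to at most 1.44 TPM. Of the leukocyte markers, Cd68 lay between 2.0 and 7.13 TPM in Control and between 21.3 and 39.8 TPM in Restored samples, and Lyz2 between 0.247 and 2.28 TPM and between 0.393 and 2.84 TPM, while Ptprc and Cd3e stayed under 1 TPM throughout. Their part in the responses below was not tested. TPM hold no read totals, so absolute depth is unknown. Relative depth was read from the most common ratio, between each sample and a reference sample, of values under 0.3 TPM. It spanned 1 to 1.78 over the 18 samples.

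One Control sample stood apart. In 4711-18 cells with sgPpia#3.2, the 54 genes made up 0.235% of all TPM, against 0.361% to 0.536% in the other 8 Control samples and 0.113% to 0.225% in the Restored samples. It was the lowest of the 9 Control samples for 49 of the 54 genes, a count not made over all tested genes. Against the sgBgal Control sample of the same line, it was lower for 53 of the 54 genes, where 55.9% of all tested genes were lower. It also had the highest Cdkn1a of the Control samples, 369 TPM against 99.4 to 171 in the other 8, with Trp53 at 5.45 TPM and a relative depth of 1.18. The main counts that rest on it are given with and without it. It was picked out by its low values of these genes, so leaving it out raises their Control level by construction.

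**Figure D1:**
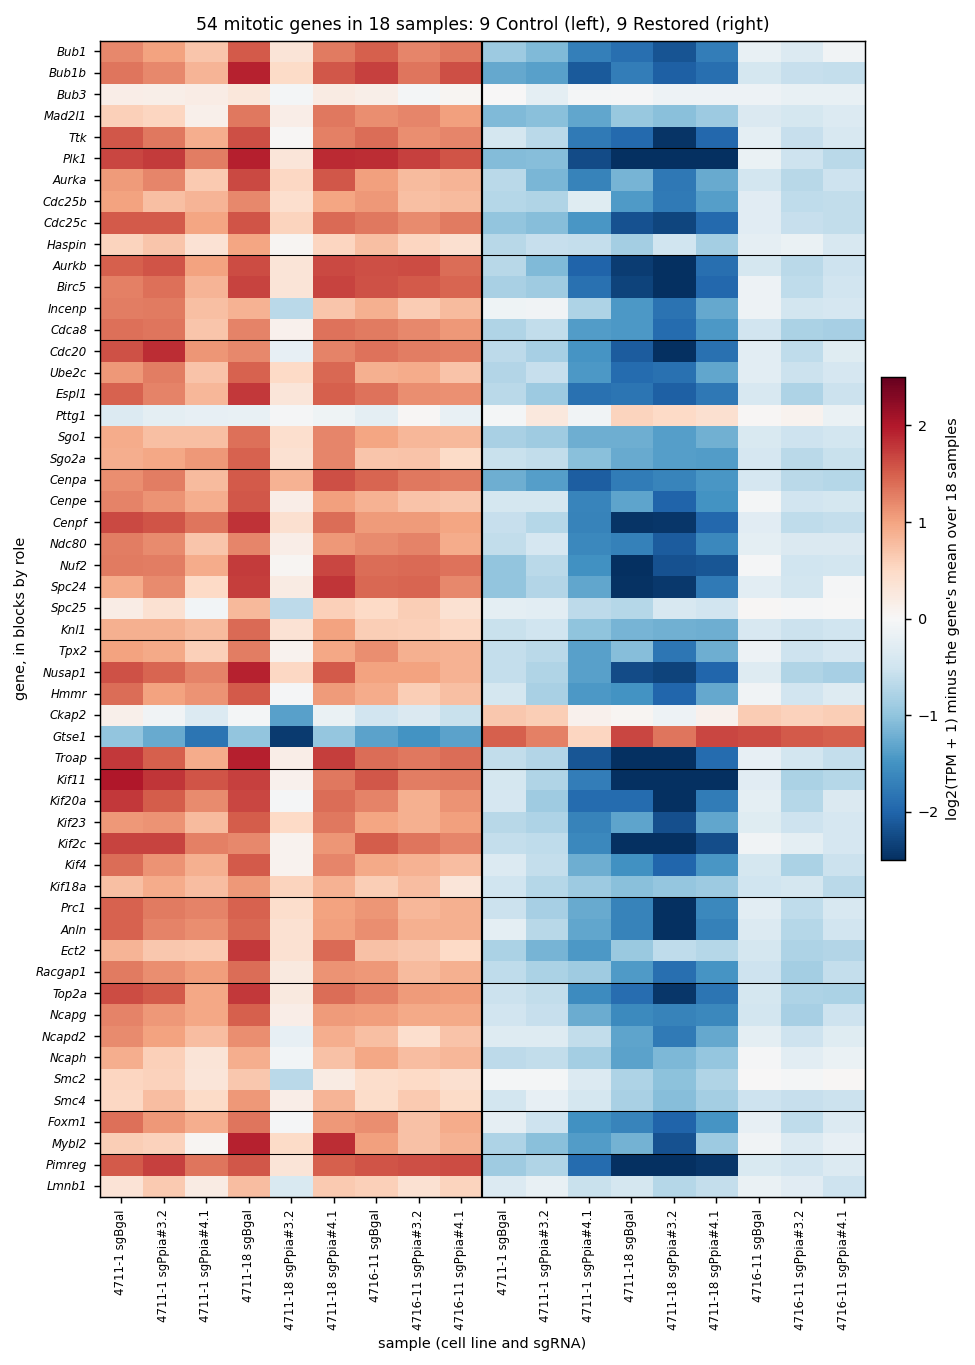
Level of each of the 54 genes (rows, in blocks by role) in each of the 18 samples (columns), as log2(TPM + 1) minus the gene's mean over the samples. Control samples are on the left and Restored on the right; nearly all rows turn from red to blue, Gtse1 turns from blue to red, and the 4711-18 sgPpia#3.2 Control column is paler than its neighbours.

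p53 restoration lowered most of the mitotic genes, with each of the 3 guides. In sgBgal cells 46 of the 54 passed the test as lower and 1, Gtse1, as higher, where 2.17% of all tested genes were called lower and 5.46% higher. With sgPpia#3.2 the counts were 42 lower and 1 higher (1.31% and 4.44% of all tested genes), and with sgPpia#4.1 they were 47 lower and 1 higher (1.79% and 4.3%). A call needed a limma adjusted p under 0.05 and a log2 fold change of at least 1. The median log2 fold change of the 54 genes was -2.07, -1.85 and -2.09 with sgBgal, sgPpia#3.2 and sgPpia#4.1, while that of all tested genes was 0.19, 0.17 and 0.15. Rescaling by the median of ratios, which brings the median of all genes to about 0, gave medians of -2.26, -2.05 and -2.26 for the 54 genes and 47, 43 and 47 of them lower (3.05%, 1.89% and 2.31% of all tested genes). Within a guide, all 3 Restored samples were below all 3 Control samples for 51, 47 and 50 of the 54 genes, where 9.19%, 7.43% and 8.23% of all tested genes had this pattern. Over all guides, 45 of the 54 had all 9 Restored samples below all 9 Control samples, a pattern held by 3.06% of all tested genes. The counts were smaller with 2 lines, among the 54 and over all tested genes. Without 4711-1, 15, 2 and 11 of the 54 were lower with sgBgal, sgPpia#3.2 and sgPpia#4.1 (0.99%, 0.421% and 1.03% of all tested genes). Without 4716-11 they were 28, 7 and 18 (1.08%, 0.242% and 0.577%), and without 4711-18 they were 40 with each guide (1.47%, 1.2% and 1.36%). With only its own groups in the fit, 7 were lower with sgPpia#3.2 (0.413%). Less RNA per cell and fewer cells in mitosis cannot be told apart in such bulk samples.

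With all 3 guides, 42 of the genes were lower and Gtse1 was higher, where 1.15% and 3.59% of all tested genes were lower and higher with all 3. Haspin, Kif2c, Ncapd2 and Nuf2 were lower with sgBgal and sgPpia#4.1 alone, and Lmnb1 with sgPpia#4.1 alone; without the sample that stood apart, 46 genes were lower with sgPpia#3.2 (1.42% of all tested genes). Bub3, Ckap2, Incenp, Pttg1, Smc2 and Spc25 were not called with any guide. With the cell line as a block, which the labels allow because every line was used in every condition, 46 genes were lower and Gtse1 higher with all 3 guides (1.87% and 5.1% of all tested genes), and those that joined were Incenp, Kif2c, Ncapd2 and Nuf2; 47, 46 and 48 were lower and Gtse1 higher with sgBgal, sgPpia#3.2 and sgPpia#4.1, where 3.32%, 2.21% and 2.92% of all tested genes were called lower and 7.7%, 6.4% and 6.26% higher. Bub3, Ckap2, Pttg1, Smc2 and Spc25 were not called with any guide in that fit either, with changes smaller than the fold needed. With the block, 54, 53 and 53 of the 54 genes had an unadjusted limma p under 0.05 with sgBgal, sgPpia#3.2 and sgPpia#4.1. The share of all tested genes that did so with the block is not given here. The 3 guide comparisons share neither Control nor Restored samples, but all 3 used the same cell lines.

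**Figure D2:**
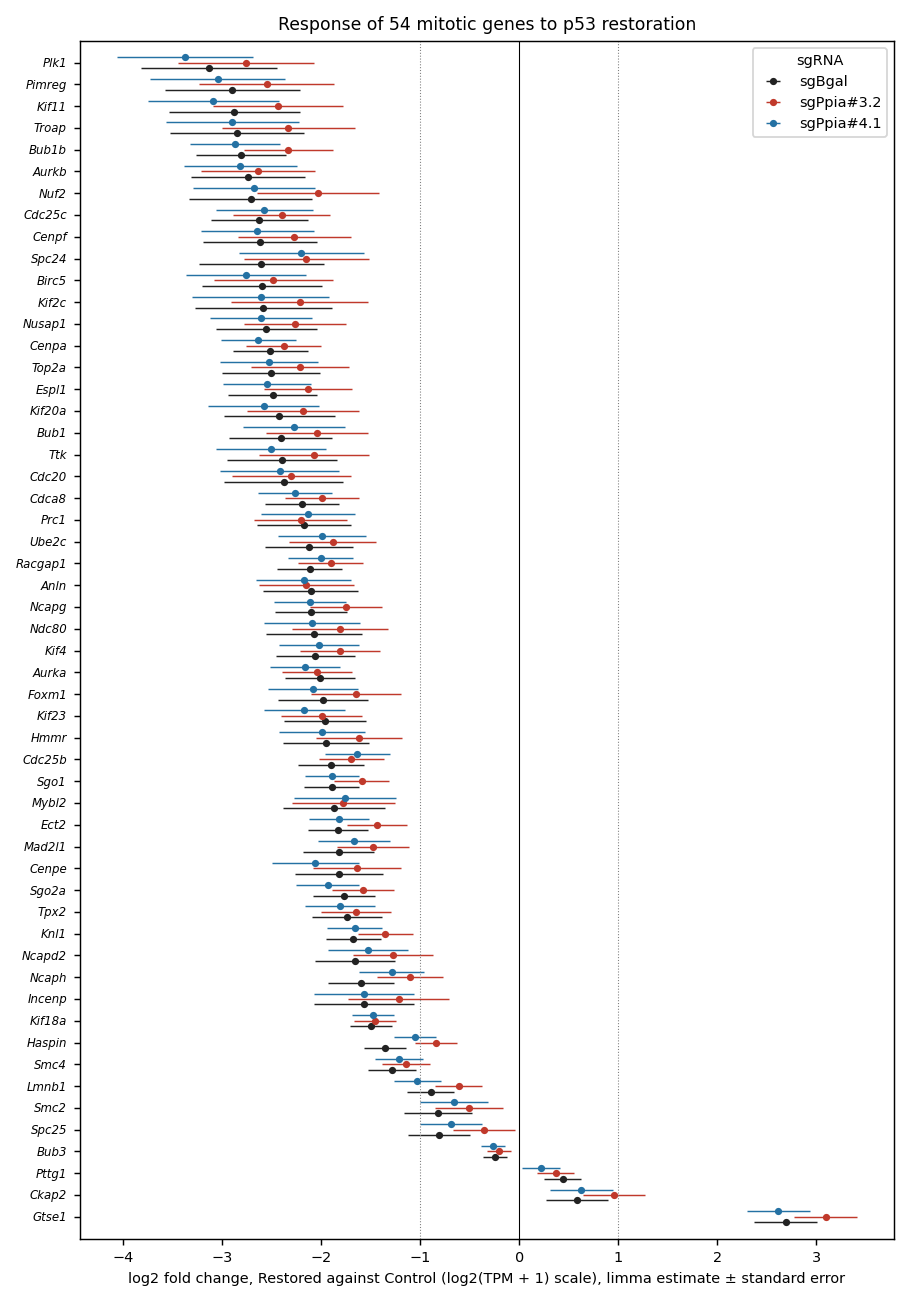
Change of each of the 54 genes after p53 restoration (x axis, log2 fold change on the log2(TPM + 1) scale, Restored against Control; points are limma estimates and bars ± 1 standard error), with a colour for each guide and dotted lines at the fold needed for a call. The genes run from Plk1 at -3.14 in sgBgal cells at the top to Gtse1 at 2.69 at the bottom.

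The mitotic kinases and entry regulators opened the list. Plk1, the polo-like kinase of mitotic entry, centrosome maturation and cytokinesis, measured 137, 168 and 155 TPM in sgBgal Control cells of 4711-1, 4711-18 and 4716-11, and 19.6, 5.69 and 37.6 TPM in the Restored cells of the same lines, an order of lines kept for all such values below. The 2 groups were far apart, and line 4711-18 was the highest before restoration and the lowest after it. Its mean went from 153 ± 15.1 to 21 ± 16 TPM (SD, n = 3), to 13.7% of Control, with a log2 fold change of -3.14 (SE 0.69, adjusted p = 0.00806), the most negative of the 54. Over all guides Plk1 ranged from 53 to 168 TPM (median 141) in Control and from 4.67 to 37.6 TPM (median 19.6) in Restored samples. Aurka, the Aurora kinase of the spindle poles, went from 80.8, 122 and 78 TPM to 23.3, 16.5 and 27.5 TPM, with no overlap. Its log2 fold changes with the 3 guides, sgBgal first, were -2.01, -2.05 and -2.16. Cdc25b and Cdc25c, the phosphatases that activate CDK1, fell by the same test with every guide, with log2 fold changes of -1.90, -1.70 and -1.63 and of -2.63, -2.40 and -2.58. Haspin, the kinase that marks histone H3 at centromeres, had log2 fold changes of -1.36, -0.84 and -1.05 and adjusted p-values of 0.00079, 0.0198 and 0.00527, so that with sgPpia#3.2 it missed the fold and not the p.

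The spindle assembly checkpoint kinases and their partners moved with them, with the exception of Bub3. Bub1, the checkpoint kinase that recruits shugoshin, went from 25.9, 33 and 32 TPM to 5.22, 2.14 and 9.3 TPM in sgBgal cells (log2 fold change -2.41, SE 0.52, adjusted p = 0.00727). Bub1b, which encodes BUBR1 of the mitotic checkpoint complex, went from 73.4, 110.4 and 94.6 TPM to 11, 7.81 and 20.7 TPM, to 14.2% of Control (log2 fold change -2.81, SE 0.45, adjusted p = 0.00102). In both genes every Restored value lay far below every Control value. Mad2l1, the CDC20 inhibitor MAD2, kept 27.8%, 34.3% and 30.3% of its Control mean with the 3 guides and Ttk, the kinase MPS1, had log2 fold changes of -2.39, -2.07 and -2.51; both were lower with every guide. Bub3, the adaptor that brings BUB1 and BUBR1 to kinetochores, measured 181, 194 and 177 TPM in Control and 161, 156 and 146 TPM in Restored sgBgal cells. It kept 84.1%, 86.6% and 83.1% of its Control mean, with log2 fold changes of -0.25, -0.20 and -0.27, and it was not called (adjusted p = 0.186, 0.325 and 0.187). In all, 4 of the 5 checkpoint genes were lower with each guide.

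The chromosomal passenger complex corrects attachments at centromeres and then moves to the midzone. Its kinase Aurkb went from 89.9, 98.4 and 97.8 TPM to 18.9, 5.25 and 22.9 TPM in sgBgal cells, to 16.5% of Control (log2 fold change -2.74, SE 0.57, adjusted p = 0.00598). Birc5, survivin, went from 44.8, 60.5 and 56.2 TPM to 9.82, 2.83 and 16.5 TPM, with log2 fold changes of -2.60, -2.48 and -2.76 over the guides. In both, 4711-18 had the lowest Restored value with sgBgal; with sgPpia#4.1, 4711-1 and 4711-18 lay close together, at 7.11 and 7.71 TPM for Aurkb and 4.25 and 3.88 TPM for Birc5. Cdca8, borealin, was lower with every guide at -2.19, -2.00 and -2.27. Incenp, the scaffold, measured 175, 133 and 134 TPM in Control and 66.6, 26 and 66.4 TPM in Restored sgBgal cells, and its log2 fold changes were -1.57, -1.22 and -1.57. Its Control values over all guides, 44.8 to 180.1 TPM, overlapped its Restored values, 19.2 to 68.2 TPM. Incenp missed the test without the block (adjusted p = 0.0541, 0.157 and 0.0652) and passed it with the cell line as a block (adjusted p = 0.00204, 0.0106 and 0.00237).

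Among genes of the APC/C and of sister chromatid separation, 5 of 6 were lower with each guide. Cdc20, the APC/C activator, was among the more abundant of the 54 genes and went from 381, 289 and 324 TPM to 79.3, 29.2 and 105 TPM in sgBgal cells, to 21.4% of Control (log2 fold change -2.38, SE 0.60, adjusted p = 0.0172). Ube2c, the E2 ubiquitin-conjugating enzyme of the APC/C, went from 419, 548 and 364 TPM to 117, 51.3 and 164 TPM, with log2 fold changes of -2.12, -1.89 and -1.99 over the guides. Restored values again sat below all Control values in both genes. Espl1, separase, had log2 fold changes of -2.49, -2.14 and -2.55, and Sgo1 and Sgo2a, the shugoshins that protect centromeric cohesin, -1.90, -1.59 and -1.89 and -1.77, -1.58 and -1.94. Pttg1, securin, the inhibitor of separase, did not share in this. It measured 22.6, 25.3 and 24.3 TPM in Control and 27.9, 42.8 and 29.7 TPM in Restored sgBgal cells, with log2 fold changes of 0.44, 0.37 and 0.22 and adjusted p-values of 0.142, 0.257 and 0.532. Separase transcripts thus fell in the test while securin transcripts gave values above those of Control in each line. No test compared the 2 genes.

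Of 8 kinetochore genes, 7 were lower with sgBgal, 6 with sgPpia#3.2 and 7 with sgPpia#4.1. Cenpa, the histone H3 variant that marks centromeres, went from 103, 133 and 126 TPM to 19, 12.8 and 33.8 TPM in sgBgal cells, with a log2 fold change of -2.51 (SE 0.38, adjusted p = 0.000597). Cenpf, a large protein of the outer kinetochore, went from 26.3, 29.4 and 17.1 TPM to 4.76, 0.581 and 6.1 TPM (log2 fold change -2.62, SE 0.57), and its Restored value in 4711-18 lay near 0. The log2(TPM + 1) scale understates the change of such low values. The NDC80 complex, the microtubule coupler of the kinetochore, has 4 subunits, of which 3 were lower in sgBgal cells. Ndc80 went from 79, 75.5 and 73.3 TPM to 20.4, 9.22 and 26.8 TPM in sgBgal cells, and its log2 fold changes over the guides were -2.08, -1.82 and -2.10. Nuf2 had -2.71, -2.03 and -2.68 (adjusted p = 0.0103, 0.0513 and 0.0126), and with the cell line as a block it was lower with sgPpia#3.2 too (adjusted p = 0.00563), which made 7 of the 8 genes. Spc24 had -2.61, -2.15 and -2.20. Spc25 measured 47.1, 73 and 58.7 TPM in Control and 34.6, 24.6 and 42.1 TPM in Restored sgBgal cells, with log2 fold changes of -0.81, -0.35 and -0.69 and adjusted p-values of 0.102, 0.547 and 0.193, so that 1 of the 4 subunits missed the test with every guide. The kinesin Cenpe and the scaffold Knl1 were lower with every guide, at -1.82, -1.64 and -2.06 and at -1.68, -1.35 and -1.66. Knl1 was also the lowest of the 54, at 2.71 to 6.7 TPM in Control samples, and the one gene with a mean under 5 TPM.

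The spindle proteins were the group with calls in both directions. Troap, trophinin-associated protein, went from 55.1, 62.5 and 42.2 TPM to 9.75, 1.65 and 13.4 TPM in sgBgal cells, to 15.5% of Control (log2 fold change -2.85, SE 0.67, adjusted p = 0.012). Tpx2, the activator of Aurora A and nucleator of spindle microtubules, went from 94.9, 116 and 106 TPM to 30.6, 22.1 and 42.9 TPM, with log2 fold changes of -1.74, -1.65 and -1.81. Both had 3 Restored values below all 3 Control values. Nusap1 and Hmmr, spindle microtubule-binding proteins, were lower with every guide, at -2.55, -2.27 and -2.61 and at -1.96, -1.62 and -1.99.

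Gtse1, a G2 and S phase expressed protein that binds p53 and microtubules, was the one gene of the 54 called higher. It measured 63.5, 63.7 and 49.3 TPM in Control and 356, 403 and 391 TPM in Restored sgBgal cells, 51.9, 23.1 and 44.1 against 302, 322 and 366 TPM with sgPpia#3.2, and 34.9, 63.9 and 49.2 against 183, 407 and 359 TPM with sgPpia#4.1. All 9 Restored samples lay above all 9 Control samples, a pattern held by 8.12% of all tested genes. Its Restored mean was 6.52, 8.31 and 6.41 times the Control mean with the 3 guides. The log2 fold changes were 2.69 (SE 0.32, adjusted p = 8.46e-05), 3.10 (adjusted p = 2.47e-05) and 2.62 (adjusted p = 0.000126). Within Control cells, Gtse1 was among the genes that were low in the sample that stood apart, at 23.1 TPM. Ckap2, a spindle-associated protein, measured 114, 101 and 74.8 TPM in Control and 166, 108 and 163 TPM in Restored sgBgal cells. It was above its Control partner in each line with each guide, but its groups overlapped over all guides (40 to 114 and 95.1 to 166 TPM) and it missed the test with log2 fold changes of 0.58, 0.95 and 0.63 (adjusted p = 0.247, 0.0716 and 0.24).

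**Figure D3:**
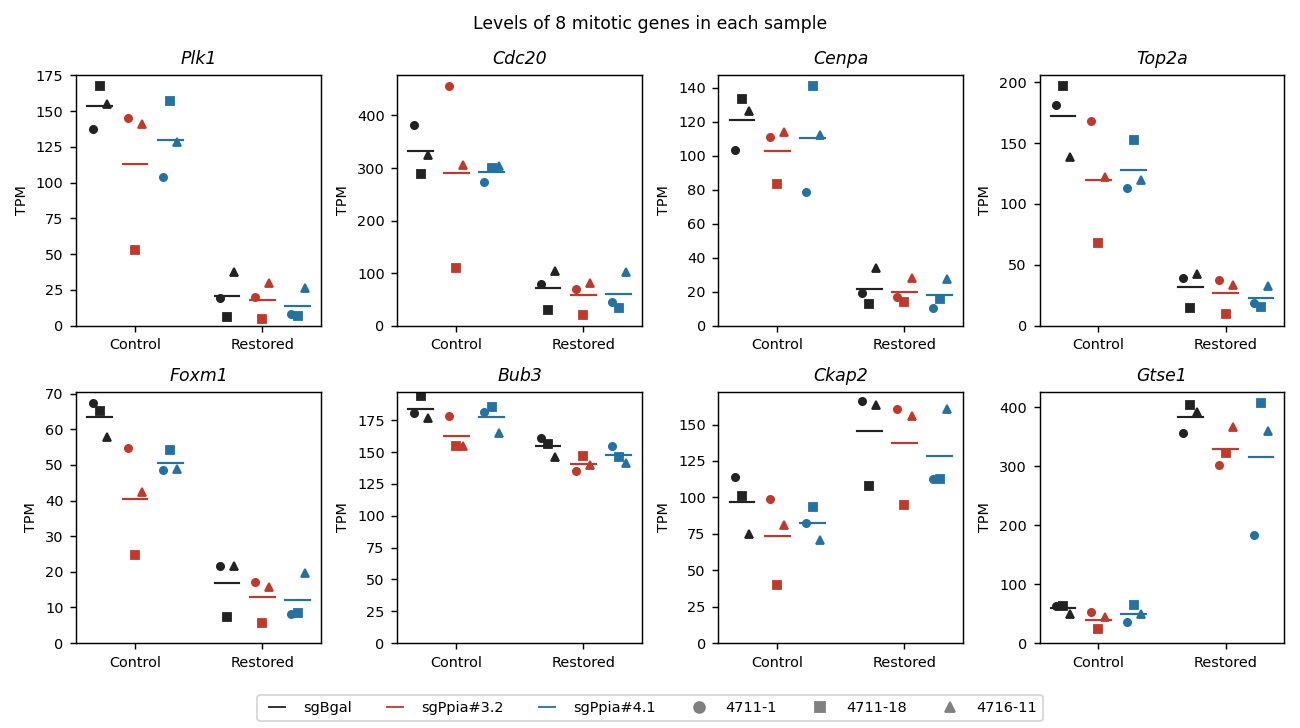
TPM of 8 of the genes in every sample, Control on the left and Restored on the right of each panel (y axes start at 0); colours are guides, symbols are cell lines and short bars are means of 3 lines. Plk1, Cdc20, Cenpa, Top2a and Foxm1 are low in all 9 Restored samples, Bub3 stays between 135 and 194 TPM, Ckap2 overlaps between states and Gtse1 rises from 23.1 to 63.9 TPM in Control to 183 to 407 TPM in Restored samples.

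All 6 kinesins were lower in sgBgal cells. Kif11, the bipolar kinesin Eg5 that pushes the spindle poles apart, went from 91.4, 74 and 65.9 TPM to 15.8, 2.66 and 17.9 TPM, to 15.7% of Control (log2 fold change -2.88, SE 0.66, adjusted p = 0.0105). Kif20a, the midzone motor that carries the passenger complex, went from 90.9, 85.1 and 62.8 TPM to 19.1, 6.11 and 21.8 TPM, with log2 fold changes of -2.43, -2.18 and -2.58 over the guides. In both motors 4711-18 held the lowest Restored value with sgBgal, and no Restored value reached a Control value. Kif23, the midzone kinesin MKLP1, had log2 fold changes of -1.96, -2.00 and -2.17, the chromokinesin Kif4 -2.06, -1.81 and -2.02, and Kif18a, which dampens chromosome movements at the metaphase plate, -1.50, -1.46 and -1.48. Kif2c, the microtubule depolymerase MCAK, had -2.59, -2.22 and -2.61 and adjusted p-values of 0.0228, 0.0557 and 0.0262, so that it missed the p with sgPpia#3.2; with the cell line as a block it was called there too (adjusted p = 0.00156).

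The 4 cytokinesis genes were lower with every guide. Prc1, which bundles antiparallel microtubules of the midzone, went from 103, 103 and 79.7 TPM to 24.8, 10.8 and 30.2 TPM in sgBgal cells (log2 fold change -2.18, SE 0.47, adjusted p = 0.00768). Racgap1, the centralspindlin partner of MKLP1, went from 231, 245 and 199 TPM to 59.6, 34.1 and 64.8 TPM, with log2 fold changes of -2.12, -1.91 and -2.01. Groups did not overlap in either gene. Ect2, the activator of RhoA at the cleavage furrow, and Anln, the furrow scaffold anillin, had log2 fold changes of -1.83, -1.43 and -1.82 and of -2.11, -2.15 and -2.18.

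The 6 genes of chromosome structure had a median log2 fold change of -1.63 in sgBgal cells, where 5 of them were lower. Top2a, topoisomerase II alpha, which untangles sister chromatids, went from 181, 197 and 138 TPM to 39.4, 14.6 and 42.4 TPM (log2 fold change -2.51, SE 0.49, adjusted p = 0.00398). The condensin I subunits Ncapg, Ncapd2 and Ncaph had log2 fold changes of -2.10, -1.75 and -2.11, of -1.66, -1.28 and -1.52 and of -1.60, -1.10 and -1.29; Ncapd2 missed the test without the block with sgPpia#3.2 (adjusted p = 0.0598) and passed it with the block (adjusted p = 0.00583). Of the SMC core that condensins I and II share, Smc4 was lower with every guide, at -1.28, -1.14 and -1.21. Smc2 measured 50.6, 56.1 and 47.6 TPM in Control and 33.4, 20 and 35.2 TPM in Restored sgBgal cells. It was not called, with log2 fold changes of -0.82, -0.51 and -0.66 and adjusted p-values of 0.129, 0.404 and 0.258.

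Both transcription factors that drive such genes were themselves lower with every guide. Foxm1 went from 67.4, 65.2 and 57.7 TPM to 21.5, 7.39 and 21.6 TPM in sgBgal cells, to 26.5% of Control (log2 fold change -1.99, SE 0.45, adjusted p = 0.0103). Mybl2, B-MYB, went from 34.6, 86.9 and 46.5 TPM to 12.6, 9.26 and 20.9 TPM, with log2 fold changes of -1.87, -1.78 and -1.76 and adjusted p-values of 0.0268, 0.0415 and 0.0423. Its Control level in 4711-18 was well above that of the other two lines. Pimreg, a mitotic regulator that binds PICALM, went from 124, 126 and 127 TPM to 22.2, 5.3 and 32.3 TPM, with log2 fold changes of -2.90, -2.55 and -3.05. Lmnb1, lamin B1 of the nuclear envelope, measured 83.2, 112 and 99.2 TPM in Control and 51, 47.7 and 57.6 TPM in Restored sgBgal cells. Its log2 fold changes were -0.89, -0.61 and -1.03 with adjusted p-values of 0.0218, 0.123 and 0.0119, so that it passed the fold limit with sgPpia#4.1 alone.

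Related genes outside the 54 were counted from lists by function, chosen, like the 54, with earlier results of these data known. Over all tested genes, 2.17%, 1.31% and 1.79% were called lower with sgBgal, sgPpia#3.2 and sgPpia#4.1, and 5.46%, 4.44% and 4.3% higher. Of 20 other mitotic kinases and entry regulators, 11, 10 and 11 were lower with sgBgal, sgPpia#3.2 and sgPpia#4.1, led by Ccnb2, a B-type cyclin, at -3.01 in sgBgal cells (175 to 27.4 TPM), Ccna2, cyclin A2, at -2.96, and Ccnb1, cyclin B1, at -2.74. Of 45 other spindle, centrosome and cytokinesis genes 23, 18 and 22 were lower and 1 was higher with each guide; Cdca3 had a log2 fold change of -2.98 and Sapcd2 of -2.86, while Shcbp1, at -2.74, missed the test (SE 1.02, adjusted p = 0.0904). Of 34 other kinetochore and centromere genes tested, 11, 9 and 12 were lower and 1 higher, with Oip5 at -2.21, Ska1 at -2.03 and Cenpn at -1.95; a further listed gene, Hjurp, was too low to test. Of 17 APC/C subunits and partners, 1, 0 and 1 were lower; Fbxo5, the inhibitor EMI1, was the one called in sgBgal cells (-1.25), while Ube2s (-0.98) and Fzr1 (-0.57) were not called. Of 16 cohesin and condensin II genes, 2, 1 and 2 were lower; in sgBgal cells these were Esco2 (-1.87) and Cdca5 (-1.60), which establish and protect cohesion, and Ncapg2 (-0.96) was not called. Of 40 DNA replication genes, limma called none with any guide, with 5, 2 and 3 at an unadjusted p under 0.05 (28.5%, 23.8% and 24.4% of all tested genes were). With the cell line as a block 1, 0 and 1 were lower, where 3.32%, 2.21% and 2.92% of all tested genes were. Mcm10 (-1.10), Pold2 (-0.81) and Tk1 (-0.76) had the largest values. The median log2 fold change in sgBgal cells was -0.05 for the replication genes, -0.16 for the APC/C, -0.07 for cohesin and condensin II, -0.89 for the other kinetochore genes, -1.06 for the other spindle genes and -1.38 for the other kinases, beside -2.07 for the 54 genes and 0.19 for all tested genes.

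The size of the response differed between the cell lines. The mean change of the 54 genes in sgBgal cells was -1.64 in 4711-1, -2.82 in 4711-18 and -1.21 in 4716-11 (log2, Restored minus Control). With sgPpia#3.2 it was -1.67, -1.85 and -1.34, and with sgPpia#4.1 -1.98, -2.48 and -1.24. Line 4711-18 had the most negative mean over the guides for 51 of the 54 genes, and 49 were ordered 4711-18, 4711-1, 4716-11 from most to least negative, where 26.7% and 15% of all tested genes were so. The sgPpia#3.2 value of 4711-18 rests on the Control sample that stood apart; without it, 4711-18 was the most negative for 52 genes and 50 had this order (27.8% and 16.3% of all tested genes). Among them, Plk1 changed by -3.02 ± 0.42 in 4711-1, -4.10 ± 0.75 in 4711-18 and -2.16 ± 0.12 in 4716-11 (mean ± SD over the 3 guides).

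The difference between lines was tested after it had been seen, with the 3 guides as the 3 samples of each line and state, so the p-values measure the spread between guides within a line. Between 4711-18 and 4716-11, 10 of the 54 genes had a more negative response in 4711-18 at an adjusted p under 0.05, where 1.53% of all tested genes did, and 42 had an unadjusted p under 0.05 in either direction, where 15% of all tested genes did. The 10 were Cdc25c, Cenpf, Kif2c, Knl1, Nusap1, Pimreg, Prc1, Sgo2a, Spc24 and Ube2c. Nusap1, for example, changed by -3.50 ± 0.67 in 4711-18 and by -1.60 ± 0.23 in 4716-11, a difference of -1.91 (SE 0.39, adjusted p = 0.015). Ube2c changed by -2.82 ± 0.53 and -1.24 ± 0.19, a difference of -1.58 (SE 0.37, adjusted p = 0.0324). The median difference of the 54 genes was -1.19, against 0.06 for all tested genes. Between 4711-18 and 4711-1 and between 4711-1 and 4716-11 limma called none of the 54 genes (0.772% and 1.1% of all tested genes were called lower), with 13 and 6 at an unadjusted p under 0.05 (14.8% and 11% of all tested genes) and medians of -0.64 and -0.51. After rescaling by the median of ratios, 11 of the 54 differed between 4711-18 and 4716-11 (1.92% of all tested genes) and none between the other pairs (0.912% and 1.1%). These counts rested on the Control sample that stood apart: without it, 48 of the 54 were more negative in 4711-18 than in 4716-11 at an adjusted p under 0.05 and 24 than in 4711-1 (4.26% and 2.66% of all tested genes), and none differed between 4711-1 and 4716-11 (1.42%). The medians were then -1.57, -0.97 and -0.51. That sample was picked out by its low values of these genes, so leaving it out makes the 4711-18 response more negative by construction. The higher counts are therefore no separate support for a difference between lines. Restored Cdkn1a was 2780 to 3806 TPM in 4711-18 and 1565 to 2306 TPM in the other two lines, and its part in the difference was not tested.

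**Figure D4:**
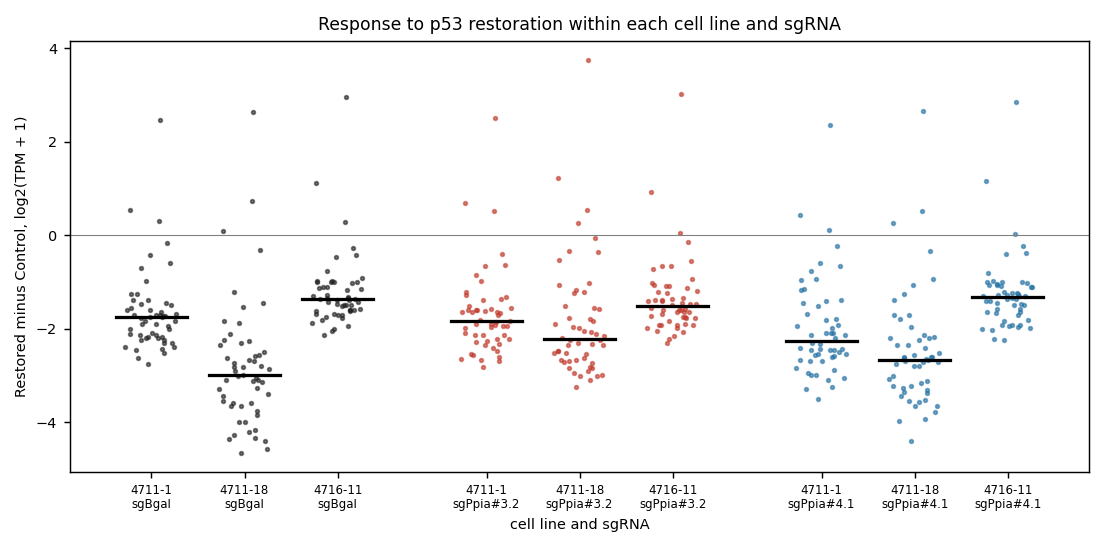
Change of each of the 54 genes within each cell line and guide (y axis, log2(TPM + 1), Restored minus Control); each point is a gene, spread sideways at random to be visible, and black bars are medians. The medians are lowest in 4711-18 with each guide, at -2.22 or below, and highest in 4716-11, from -1.33 to -1.52, and the point above 2 in each column is Gtse1.

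The guides against Ppia asked whether cyclophilin A alters this response. Ppia itself measured 2704, 2575 and 2849 TPM in sgBgal Control cells, 1073, 658 and 1207 TPM with sgPpia#3.2 and 1713, 1684 and 1952 TPM with sgPpia#4.1. The Restored values were 2060, 1551 and 2730 TPM with sgBgal, 873, 769 and 1233 TPM with sgPpia#3.2 and 1678, 1191 and 1765 TPM with sgPpia#4.1. Guide-induced small insertions and deletions need not remove a transcript, so these levels check the guides in part only. The paper reports cyclophilin A protein in Ppia-targeted Type D cells as reduced but not absent. The comparisons below therefore concern its partial loss.

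In Control cells, limma called none of the 54 genes between either Ppia guide and sgBgal, and none of all tested genes (0%). None of the 54 had an unadjusted p under 0.05, where 2.42% of all tested genes did with sgPpia#3.2 and 0.21% with sgPpia#4.1. With the cell line as a block, 1 of the 54, Ncaph, had an unadjusted p under 0.05 with sgPpia#3.2, where 12.7% of all tested genes did, and none was called, where 0.0156% of all tested genes were called lower. A negative log2 fold change was found for 53 of the 54 genes with each guide, where 63.9% and 62.8% of all tested genes had one, with medians of -0.48 and -0.25, against -0.08 and -0.04 over all tested genes. The 2 comparisons share their sgBgal samples. With sgPpia#3.2 the mean over the 54 genes was -0.05 in 4711-1, -1.22 in 4711-18 and -0.12 in 4716-11 (-0.46 ± 0.66, SD, n = 3), so that the sample that stood apart set it. By line, 34, 53 and 38 of the 54 genes were negative with sgPpia#3.2, against 65.0%, 55.9% and 63.9% of all tested genes. Without that sample 47 were negative and the median was -0.21, and without line 4711-18 it was -0.08. With sgPpia#4.1 the means by line were -0.37, -0.21 and -0.15 (-0.24 ± 0.12). The largest values with sgPpia#3.2 were those of Kif20a at -0.76 (SE 0.56), Hmmr at -0.76 (SE 0.43) and Troap at -0.70 (SE 0.67), each with an adjusted p of 1.00. By line, Kif20a differed from sgBgal by -0.24, -1.70 and -0.35, most of it in 4711-18. With sgPpia#4.1 they were Top2a at -0.42 (SE 0.49), Ttk at -0.39 (SE 0.56) and Espl1 at -0.38 (SE 0.44).

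In Restored cells limma again called none of the 54 genes and none of all tested genes (0%) with either Ppia guide. None of the 54 had an unadjusted p under 0.05, against 1.2% and 0.53% of all tested genes. With the cell line as a block, again none of the 54 was called or had an unadjusted p under 0.05. The medians were -0.19 with sgPpia#3.2 and -0.26 with sgPpia#4.1, against -0.09 and -0.07 over all tested genes. Leaving out 1 line gave medians from -0.23 to -0.14 with sgPpia#3.2; with sgPpia#4.1 they were -0.04 without 4711-1, -0.48 without 4711-18 and -0.30 without 4716-11. The largest values were those of Anln at -0.56 (SE 0.48), Kif20a at -0.52 (SE 0.56) and Prc1 at -0.52 (SE 0.47) with sgPpia#3.2, and of Cenpe at -0.58 (SE 0.44), Kif11 at -0.57 (SE 0.66) and Ttk at -0.50 (SE 0.56) with sgPpia#4.1. The lines went different ways with sgPpia#4.1: the mean over the 54 genes was -0.71 in 4711-1, 0.13 in 4711-18 and -0.18 in 4716-11. Cenpe, for example, differed from sgBgal by -1.21, -0.16 and -0.38 in the 3 lines.

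**Figure D5:**
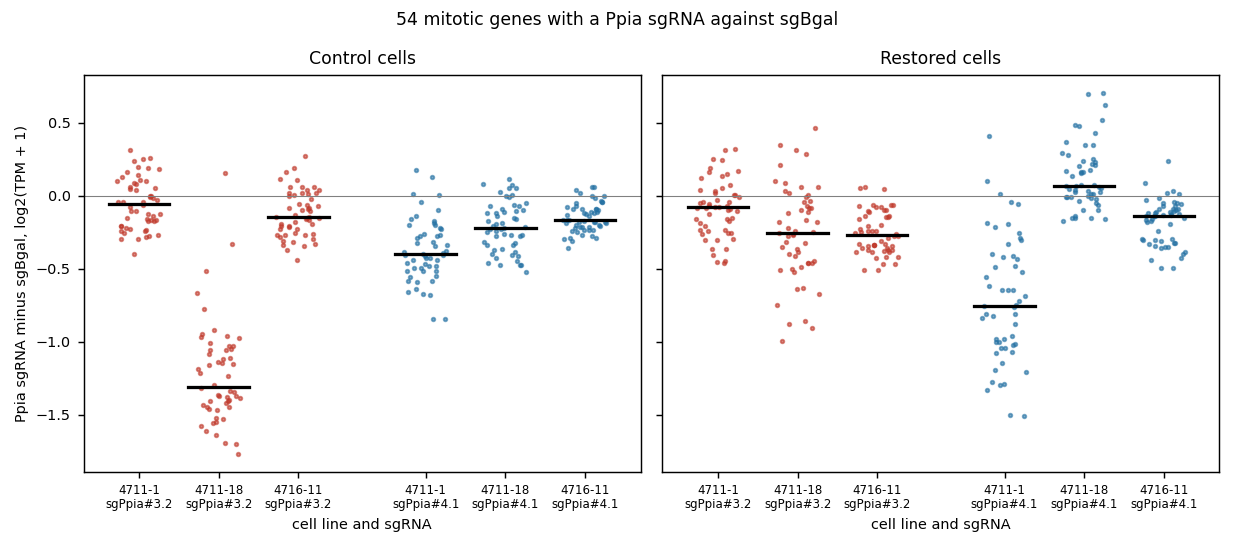
Difference of each of the 54 genes between a Ppia guide and sgBgal within each line (y axis, log2(TPM + 1)), in Control cells on the left and Restored cells on the right; each point is a gene, spread sideways at random, and black bars are medians. The median lies at -1.31 for 4711-18 with sgPpia#3.2 in Control cells and at -0.75 for 4711-1 with sgPpia#4.1 in Restored cells, and between -0.40 and 0.07 in the other 10 columns.

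Whether the response to restoration itself differed with a Ppia guide was tested as an interaction, on the adjusted p alone. No gene of the 54, and none of all tested genes (0%), passed it with either guide by limma, and none of the 54 had an unadjusted p under 0.05, where 0.242% and 0.14% of all tested genes did. With the cell line as a block, again none of the 54 was called or had an unadjusted p under 0.05 with either guide. The share of all tested genes in that fit is not given here. The median interaction of the 54 genes was 0.30 with sgPpia#3.2 and -0.02 with sgPpia#4.1, against -0.01 and -0.03 over all tested genes. Without the sample that stood apart, the first became -0.01. For Plk1 the interaction was 0.38 (SE 0.97) and -0.24 (SE 0.97), and for Gtse1 0.40 (SE 0.45) and -0.08 (SE 0.45). These standard errors come from the fit without the block, which leaves the differences between lines in the spread. Their size limits which differences in response could be detected in single genes.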

How the data were processed

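RNA was sequenced from 18 samples: 3 Type D SCLC cell lines, each with 3 sgRNAs and 2 states of p53. The labels gave every group. Per the labels, libraries were made from total RNA with a NEBNext Ultra II kit, and the submitters' processing notes name bcl2fastq 2.17, HISAT2, mm10 and GRCm39. The counter and the annotation were not given in the sources used here, nor which of the named builds the values rest on. Values were deposited as TPM of 25239 genes, 1 column for each of the 18 samples, all with the same sum. TPM are scaled within a sample, so a rise of some genes lowers the rest, and they hold no read totals.

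From these values, limma 3.58.1 (R 4.3.3) was fitted to log2(TPM + 1) of the 12828 genes that reached 1 TPM in 3 or more samples, with 1 mean for each of the 6 conditions, and p-values were adjusted by Benjamini-Hochberg over all genes tested. Calls needed an adjusted p under 0.05 together with a log2 fold change of 1 or more in either direction, and in the interaction at the adjusted p alone. Fold changes on this scale understate the change of low genes. The cell line, which the labels give and which every condition shares, pairs the samples. Deviations from the condition means had a mean correlation of 0.73 between samples of the same line (lowest of 45 pairs 0.58). Alternatives were the cell line as a block, another pseudocount, filter and scaling, fits with only the groups compared, and leaving out each line. The calculations were checked on simulated data.

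The 54 genes and all lists were chosen with earlier results of these data known. Genes given with values were 1 to 3 of each role, the 5 most negative and 3 most positive in sgBgal restoration, the 3 with the largest absolute change in each comparison of a Ppia guide, those whose call differed between guides, and up to 3 of each further list. Bub3, Incenp, Spc25 and the other members given beyond these were chosen after their values were seen. Promoter windows came from RefSeq (GRCm38.p6), with motifs searched on both strands by Python 3.11.15. Some markers among the cell type lists are not reported here.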

Additional observations from a re-analysis of the deposited data

Results flagged for a closer look

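The response of the mitotic genes to p53 restoration differed between cell lines. In a test of the difference itself, made after it was seen and with the 3 guides as the samples of each line, 10 of the 54 genes had a more negative response in 4711-18 than in 4716-11 at a limma adjusted p under 0.05, where 1.53% of all tested genes did. After rescaling by the median of ratios 11 of the 54 did, against 1.92%. Without the Control sample that stood apart, 4711-18 with sgPpia#3.2, 48 did, against 4.26%. That sample was picked out by its low values of these genes, so leaving it out makes the 4711-18 response more negative by construction. With that sample kept, the median difference was -1.19 on the log2(TPM + 1) scale, against 0.06 for all tested genes. The 3 guides within a line are not independent lines, so the p-values measure the spread between guides.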

How the results depend on the processing

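The numbers of genes called lower after p53 restoration depended on which lines were used, and the median changes kept their direction. Leaving out each line in turn, or the 1 Control sample that stood apart, gave 15 to 47 genes lower with sgBgal, 2 to 46 with sgPpia#3.2 and 11 to 47 with sgPpia#4.1. Without 4711-1 the counts were 15, 2 and 11, without 4716-11 they were 28, 7 and 18, and without 4711-18 they were 40, 40 and 40; these fits hold fewer samples, and the cause of the lower counts was not tested. Over these fits the median log2 fold change ran from -2.40 to -1.61 with sgBgal, -2.13 to -1.67 with sgPpia#3.2 and -2.47 to -1.83 with sgPpia#4.1. With only the groups compared in the fit, 7 genes were lower with sgPpia#3.2, a fit with fewer samples behind its estimate of the spread. Without the Control sample that stood apart, the genes with a more negative response in 4711-18 numbered 48 against 4716-11, up from 10, and 24 against 4711-1, up from 0. Leaving out a low Control sample of that line makes its response more negative by construction. Under a replicate block by cell line, 47, 46 and 48 genes were lower and 1 higher, and none of the 54 was called in any comparison of a Ppia guide or interaction. Rescaling by the median of ratios moved the calls over all genes in sgBgal restoration from 701 higher and 279 lower to 479 higher and 391 lower, in sgPpia#3.2 from 570 and 168 to 413 and 243, and in sgPpia#4.1 from 552 and 229 to 414 and 296. The other 335 alternative values stayed within 1.5 times the reported count or within 1 SD over lines of the reported median. The medians of the interactions took either sign when lines were left out, from -0.08 to 0.51 with sgPpia#3.2 and from -0.19 to 0.16 with sgPpia#4.1. Of the genes named by rule, 471 values under alternatives kept their call, 32 lost it, 4 gained it and none reversed. Depth is unknown beyond the relative values, so counting error in low genes such as Knl1 could not be given.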
